A study of Homo sapiens with 12 samples.

Results

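Mitochondrial ribosomal proteins are made in the cytosol from nuclear genes, imported into mitochondria and assembled there with ribosomal RNAs that the mitochondrial genome encodes. The finished ribosome has a small subunit, which reads the messenger RNA, and a large subunit, which joins the amino acids, and it makes the few respiratory chain proteins that mitochondrial DNA encodes. Many of its proteins have counterparts in bacterial ribosomes and others have none. The genes described here were chosen by name alone, as the rows whose symbol is MRPL or MRPS followed by a number and, in some, a letter. This gave 77 of the 26334 genes of the table. Of these, 26 encode small-subunit proteins and 50 encode large-subunit proteins, among which MRPS18A and MRPS30 are counted despite their symbols. The remaining gene, MRPS36, encodes a component of the alpha-ketoglutarate dehydrogenase complex and no ribosomal subunit. It stayed in all counts because the rule is by name.

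RNA was measured in HK-2 cells, an immortalized human proximal tubule line, with a doxycycline-inducible gene for PRCC-TFE3, the fusion of PRCC with the transcription factor TFE3 known from translocation renal cell carcinoma. The cells spent 48 h with doxycycline (Dox) plus MSC2530818, with Dox alone, with MSC2530818 alone, or with the vehicle DMSO. MSC2530818, at 100 nM here, inhibits CDK8 and CDK19, the kinases of the Mediator complex that links transcription factors to RNA polymerase II. Each of the 4 groups had 3 poly(A) libraries, named by the labels as independent biological replicates. All groups carried the inducible gene, and all were grown with puromycin and blasticidin. Dox was not tried on cells that lack the inducible gene, so what the fusion does and what the drug itself does cannot be told apart. Whether the line is a single clone is not given in the sources used here.

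The deposited values are FPKM, in which the fragments of a gene are divided by its length and by the size of the library, so levels of different genes can be set side by side per length. Libraries summed to between 429208 and 473950 FPKM, and their depth is unknown. TFE3 reached 87.6, 83.2 and 81.7 FPKM with Dox plus inhibitor and 149, 154 and 146 FPKM with Dox, against 29.7, 27.4 and 26.3 FPKM with inhibitor and 38.9, 35.8 and 32.7 FPKM with vehicle. Every library given Dox was thus above every library without it, and TFE3 with Dox was lower when the inhibitor was added (log2 change -0.82 ± 0.067 SE, adjusted p = 5e-06). Of 10 proximal tubule markers, 3 averaged at least 1 FPKM (GGT1, MME and SLC3A1), while LRP2, SLC34A1, ANPEP and SLC22A6 were at or near 0. Of 8 general renal epithelial markers, 6 did so, and all 6 markers of other cell types had a mean under 1 FPKM, with a summed level of 0.02 to 0.39 FPKM per library. Replicate 1 had the highest FPKM sum in every group.

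All 77 genes passed the filter for testing, an FPKM of at least 1 in at least 3 of the 12 libraries, which 12649 genes of the table passed. Changes are differences of mean log2(FPKM + 1), a scale that understates changes of genes with low values, and they are given ± SE. Adjusted p-values are two-sided, come from limma and are Benjamini-Hochberg adjusted over all 12649 genes. A gene with an adjusted p under 0.05 is said to have risen or fallen. FPKM means are given ± SD with n = 3 libraries. A lower value in a library of pooled cells cannot tell fewer transcripts in each cell from fewer cells that express the gene.

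The genes of the mitochondrial ribosome were expressed in all 12 libraries, at levels that differed widely from one gene to the next. The median of their mean levels was 35.9 FPKM, and together they took 0.718% to 0.807% of a library's FPKM sum. MRPL51, a large-subunit protein without a bacterial counterpart, was the highest at 174 FPKM. MRPL33, the counterpart of a small bacterial large-subunit protein, followed at 152 FPKM, MRPS17, a small-subunit protein of bacterial ancestry, at 146 FPKM, MRPL3 at 113 FPKM and MRPS15 at 97.9 FPKM. At the low end stood MRPL57 at 7.79 FPKM, MRPL22 at 8.48 FPKM, MRPS31 at 8.66 FPKM, MRPS25 at 10.9 FPKM and MRPS14 at 12.3 FPKM. Although the products of these genes stand beside each other in 1 particle, their transcript levels per length thus spanned more than an order of magnitude. The median was 43.7 FPKM for the small subunit and 34.7 FPKM for the large subunit. The cytosolic ribosomal protein genes, listed by symbol for comparison, had a median of 828 FPKM, and the nuclear-encoded subunits of the respiratory chain and ATP synthase had a median of 76.4 FPKM.

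**Figure D1:**
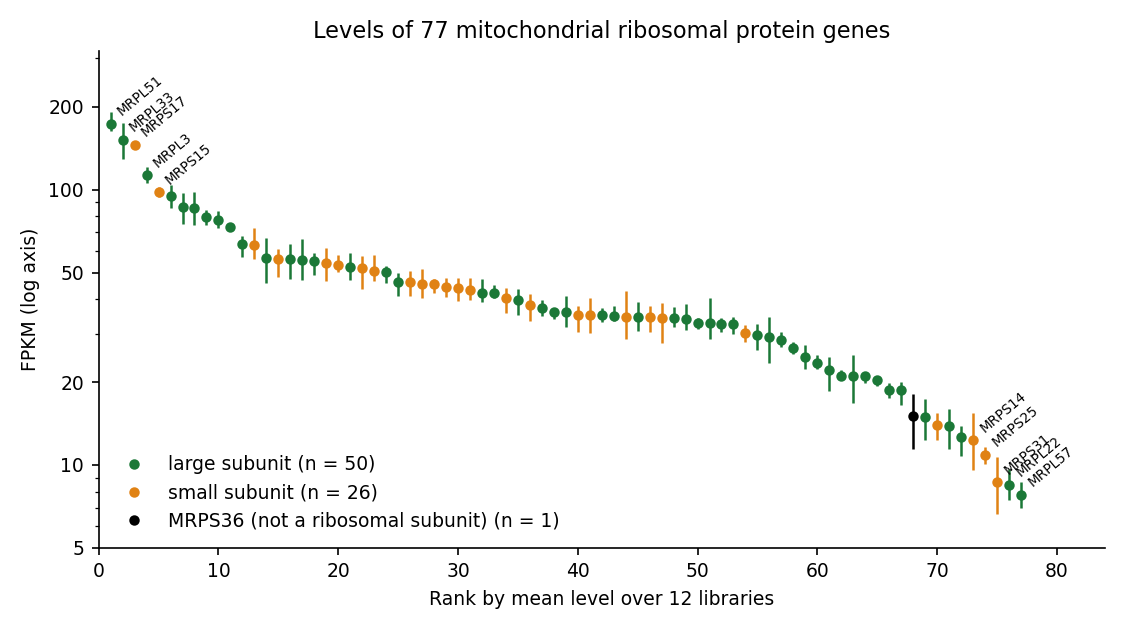
Mean FPKM over 12 libraries (log axis) of the 77 genes in order of level, with small-subunit genes, large-subunit genes and MRPS36 in different colours and a vertical line from the lowest to the highest group mean. Levels run from 7.79 FPKM for MRPL57 to 174 FPKM for MRPL51, and the group means of a gene lie close together by comparison.

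Across the groups, MRPL51 averaged 165 ± 21.3 FPKM with Dox plus inhibitor, 177 ± 10.8 FPKM with Dox, 163 ± 11.3 FPKM with inhibitor and 192 ± 8.58 FPKM with vehicle, and no comparison of it passed the test. MRPS17 had the smallest spread of the 77 genes, with a highest group mean 1.05 times the lowest. MRPL33 varied more, at 136 ± 19.6 FPKM with Dox plus inhibitor, 175 ± 3.61 FPKM with Dox, 129 ± 17.6 FPKM with inhibitor and 168 ± 8.81 FPKM with vehicle. Over all 77 genes the ratio of the highest to the lowest group mean had a median of 1.23 and a maximum of 1.62, in MRPS31. It exceeded 1.5 in 3 genes and stayed under 1.2 in 30. The SD within a group had a median of 6.97% of the mean, over 308 combinations of gene and group.

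In cells without Dox a part of these genes was lower with MSC2530818, by modest amounts. With inhibitor against vehicle, 25 of the 77 fell and 1 rose. Among all tested genes 26.3% fell and 11.7% rose. In this fit with group means alone the share that fell was thus near the background and the share that rose was below it. A fit with the replicate number as a block gave 38 that fell (49.4%), beside 34.8% of all tested genes. There the share that fell was above the background. The median change of the 77 genes was -0.174 and that of all tested genes was -0.117. The 25 genes that fell without the block had changes of -0.17 to -0.52. These are falls to between 0.887 and 0.699 of the vehicle level on the FPKM + 1 scale. The 25 genes came from both subunits, with 10 of 26 small-subunit genes, 14 of 50 large-subunit genes and MRPS36.

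MRPL53, a protein found in animal mitochondrial ribosomes, was among the genes with the largest falls. Its level was 23.4, 22.8 and 23.9 FPKM with inhibitor, against 35.9, 33.6 and 31.6 FPKM with vehicle. All inhibitor libraries lay below all vehicle libraries, and the change was -0.51 ± 0.058 (adjusted p = 5.7e-05). MRPL27, whose bacterial counterpart reaches into the peptidyl transferase centre, had 51.0, 40.7 and 46.0 FPKM with inhibitor, against 73.3, 61.8 and 61.4 FPKM with vehicle. Here too the groups did not overlap, and the change was -0.50 ± 0.084 (adjusted p = 0.00079). MRPS14, a protein of the small-subunit head, had 9.30, 9.89 and 9.57 FPKM with inhibitor, against 12.8, 12.8 and 14.3 FPKM with vehicle, with a change of -0.43 ± 0.063 (adjusted p = 0.00032). MRPL35, a large-subunit protein of bacterial ancestry, had 10.2, 11.2 and 12.8 FPKM with inhibitor, against 16.1, 14.6 and 15.5 FPKM with vehicle, a change of -0.41 ± 0.09 (adjusted p = 0.0043). MRPS22 had 47.2, 44.6 and 48.5 FPKM with inhibitor, against 54.6, 58.4 and 59.0 FPKM with vehicle. MRPS22 is a small-subunit protein without a bacterial counterpart, and its change was -0.29 ± 0.05 (adjusted p = 0.00098).

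The dehydrogenase component MRPS36 had the steepest fall, with 11.6, 10.3 and 12.3 FPKM with inhibitor, against 16.8, 16.1 and 17.2 FPKM with vehicle (-0.52 ± 0.073, adjusted p = 0.00026). The call on MRPS36 was lost when a trend with transcript length and GC content was removed. Among the other genes that fell were MRPL20 (-0.39 ± 0.081), MRPS31 (-0.39 ± 0.12), MRPL44 (-0.38 ± 0.091), which carries a ribonuclease III-like fold, MRPL33 (-0.38 ± 0.11), MRPL54 (-0.36 ± 0.084) and MRPS28 (-0.34 ± 0.088). The calls on MRPS31, MRPL33 and MRPS28 were lost in 7, 3 and 1 of the 23 alternatives run. Reads of MRPS31, MRPL42 and MRPL45 could have been split with the related pseudogenes MRPS31P5, MRPL42P5 and MRPL45P2, which are rows of their own at no more than 2.19 FPKM, so values of these 3 genes are uncertain.

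Against this direction, MRPS12 rose. It is the counterpart of the bacterial protein at the decoding centre of the small subunit. It had 54.1, 50.7 and 49.5 FPKM with inhibitor, against 44.6, 43.0 and 38.2 FPKM with vehicle, with no overlap between the groups (0.29 ± 0.068, adjusted p = 0.0063). The libraries of the 2 groups did not overlap in 29 genes, with 2 higher and 27 lower, against 13.8% and 29.9% of all tested genes.

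**Figure D2:**
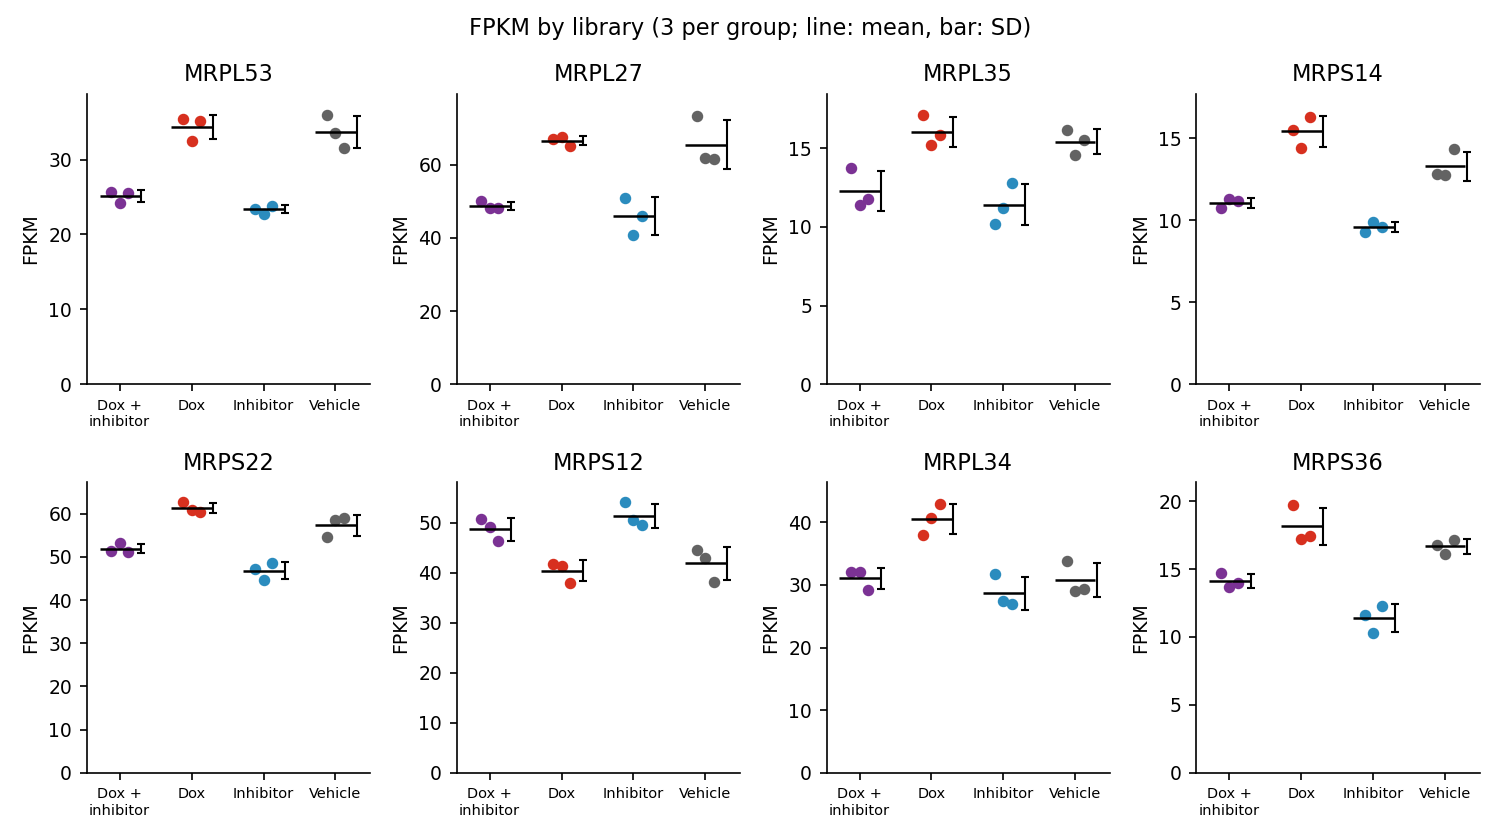
FPKM in each library (points) with the mean (line) and SD (bar) of 3 libraries, for 8 genes, on axes that start at 0. MRPL53, MRPL27, MRPL35, MRPS14, MRPS22 and MRPS36 lie lower in both groups given inhibitor than in the groups without it, MRPS12 lies higher in both, and MRPL34 is highest with Dox alone.

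The count of genes that fell depended on the scaling, on the libraries and on the fit. With the length and GC trend removed 37 fell (48.1%), beside 36.8% of all tested genes. Rescaling each library by the median ratio to a reference library moved the median change of all tested genes to -0.012, and 12 of the 77 genes fell and 1 rose, beside 14.3% and 17.6% of all tested genes. Without replicate 1 of every group 44 fell and 1 rose, beside 31.1% and 13.0% of all tested genes. Without inhibitor replicate 2 the number that fell was 16, beside 20.6%. MRPL53, MRPL27, MRPS14, MRPL35, MRPS22, MRPL20, MRPL44, MRPL54, MRPS18B and MRPS18C passed the test in the same direction under each of the 23 alternatives run, and so did MRPS12.

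The same question was asked in cells with the fusion gene induced, by comparing Dox plus inhibitor with Dox alone. This comparison shares no library with the previous one. Of the 77 genes 15 fell and 2 rose, beside 20.8% and 11.3% of all tested genes. The share that fell was again near the background in the fit with group means alone. With the replicate number as a block 31 fell (40.3%), beside 27.3% of all tested genes, a share above the background. The median change was -0.127 for the 77 genes and -0.079 for all tested genes. MRPS14 and MRPL27 fell the most, followed by MRPL53, MRPL46 and MRPL34.

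MRPS14 had 10.7, 11.3 and 11.2 FPKM with Dox plus inhibitor, against 15.5, 14.4 and 16.3 FPKM with Dox (-0.44 ± 0.063, adjusted p = 0.00031). MRPL27 had 50.1, 48.1 and 48.1 FPKM with Dox plus inhibitor, against 66.9, 67.7 and 65.1 FPKM with Dox (-0.44 ± 0.084, adjusted p = 0.0022). MRPL53 had 25.7, 24.2 and 25.6 FPKM with Dox plus inhibitor, against 35.4, 32.5 and 35.2 FPKM with Dox (-0.43 ± 0.058, adjusted p = 0.00021). In all 3 genes every library with the inhibitor lay below every library without it, by a margin wider than the spread within either group. MRPL46, a protein of the central protuberance of the large subunit, had 13.6, 11.5 and 11.7 FPKM with Dox plus inhibitor, against 16.2, 17.3 and 16.0 FPKM with Dox (-0.40 ± 0.078, adjusted p = 0.0025). MRPL35 averaged 12.3 ± 1.27 FPKM with Dox plus inhibitor and 16.0 ± 0.961 FPKM with Dox (-0.36 ± 0.09, adjusted p = 0.01). MRPS22 averaged 51.9 ± 1.07 FPKM with Dox plus inhibitor and 61.3 ± 1.18 FPKM with Dox (-0.23 ± 0.05, adjusted p = 0.0042). MRPL33 (-0.37 ± 0.11), MRPS28 (-0.36 ± 0.088), MRPS36 (-0.34 ± 0.073) and MRPL22 (-0.32 ± 0.09) also fell. The call on MRPS36 was again lost with the length and GC trend removed (-0.17, adjusted p = 0.36), and those on MRPL33 and MRPL22 were each lost in 6 of the 23 alternatives, median-ratio scaling among them.

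MRPS12 rose again, with 50.8, 49.2 and 46.3 FPKM with Dox plus inhibitor, against 41.9, 41.4 and 38.0 FPKM with Dox (0.26 ± 0.068, adjusted p = 0.012), a call that was lost without Dox replicate 3. MRPS21, the counterpart of a small bacterial small-subunit protein, had 65.5, 58.5 and 59.1 FPKM with Dox plus inhibitor, against 55.8, 45.1 and 44.4 FPKM with Dox (0.33 ± 0.083, adjusted p = 0.0098). With vehicle MRPS21 averaged 56.5 ± 2.03 FPKM, close to its level with Dox plus inhibitor, and its change with inhibitor alone was 0.06 ± 0.083 (adjusted p = 0.58). In 6 genes every library with Dox plus inhibitor lay above every Dox library, and in 32 below, against 17.4% and 34.5% of all tested genes.

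After median-ratio scaling 10 genes fell and 5 rose in this comparison, beside 13.2% and 15.5% of all tested genes. Without replicate 1 of every group 34 fell and 2 rose, beside 24.1% and 11.9%. The number that fell was 24 without inhibitor replicate 1, beside 23.1%, and 23 without Dox plus inhibitor replicate 1, beside 18.9%.

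**Figure D3:**
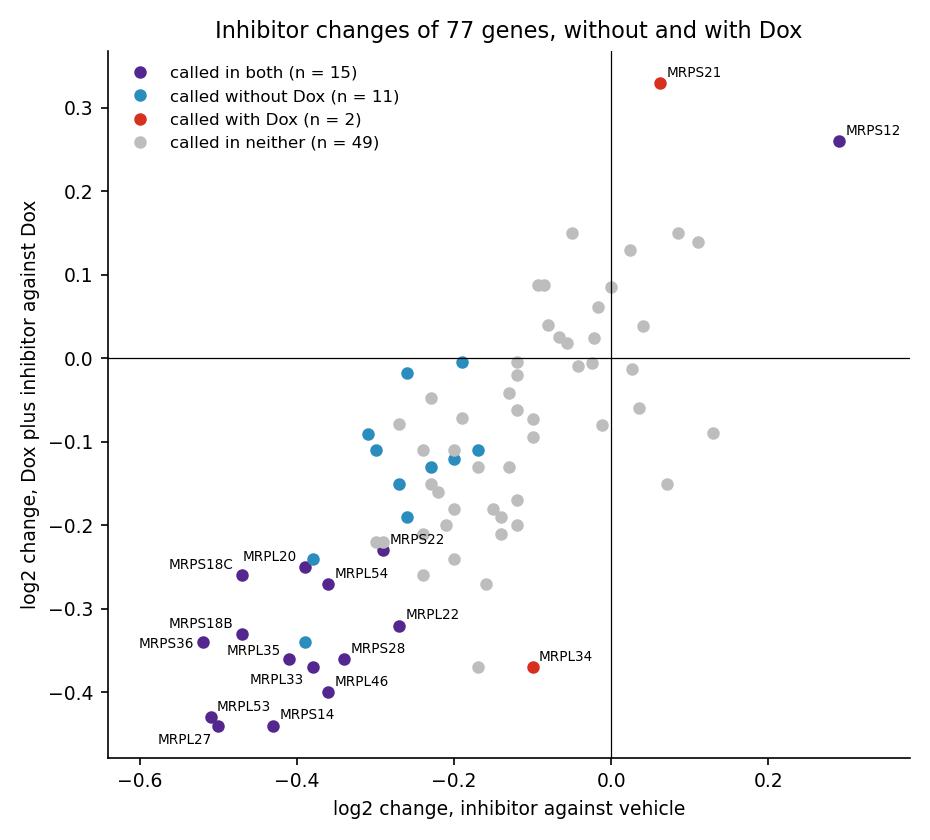
The log2 change with inhibitor against vehicle (horizontal) and with Dox plus inhibitor against Dox (vertical) for each of the 77 genes, coloured by the comparisons in which the adjusted p was under 0.05. Of 77 points, 58 lie below 0 on both axes, and MRPS12 is the gene that rose in both.

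Set side by side, 14 genes fell in both inhibitor comparisons, which is 56.0% of the 25 and 93.3% of the 15. Among all tested genes the corresponding shares were 57.4% and 72.6%. The exception among the 15 was MRPL34. Of the 77 changes 58 were below 0 in both comparisons, 6 were above 0 in both and 13 differed in sign. As a description over the 77 genes, which share the libraries and are not independent, Pearson's r between the changes was 0.79. MRPL53, MRPL27, MRPS14, MRPL35 and MRPS22 passed the test in both comparisons under every one of the 23 alternatives.

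The regions before the starts of 4 of these 5 genes and of MRPS12, the gene that moved the other way, show what the genes carry next to their starts. RefSeq promoter windows, 250 bases before to 50 bases after a start in GRCh38.p14, were at hand for 68 of the 77 genes, and MRPL35 was not among them. Letters of 5 motifs were searched on both strands. CCGGAAG is the core bound by ETS factors such as GABPA, and AANATGGC is a core of YY1 sites. GCGCA and GCGC with any base between is a core of NRF1 sites. CACGTG is the E-box bound by MYC and the MiT/TFE family to which TFE3 belongs, and TCACGTGA is its extended form. The last of these contains the E-box. Capitals mark matches to any of the 5 motifs in the windows below, which lie at chr2:74472631-74472930 (MRPL53, minus strand), chr17:50373135-50373434 (MRPL27, minus), chr1:175023376-175023675 (MRPS14, minus), chr3:139343744-139344043 (MRPS22, plus) and chr19:38930694-38930993 (MRPS12, plus).
MRPL53: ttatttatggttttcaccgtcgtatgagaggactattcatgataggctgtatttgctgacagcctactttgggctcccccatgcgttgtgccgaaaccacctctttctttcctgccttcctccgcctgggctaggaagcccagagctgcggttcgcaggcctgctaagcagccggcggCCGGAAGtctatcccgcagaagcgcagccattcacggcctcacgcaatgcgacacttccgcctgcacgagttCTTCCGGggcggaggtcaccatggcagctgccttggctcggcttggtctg
MRPL27: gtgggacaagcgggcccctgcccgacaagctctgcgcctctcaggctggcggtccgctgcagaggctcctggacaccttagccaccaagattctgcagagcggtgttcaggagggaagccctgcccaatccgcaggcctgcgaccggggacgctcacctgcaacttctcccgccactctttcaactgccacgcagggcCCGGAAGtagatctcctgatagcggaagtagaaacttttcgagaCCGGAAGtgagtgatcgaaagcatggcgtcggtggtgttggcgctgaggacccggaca
MRPS14: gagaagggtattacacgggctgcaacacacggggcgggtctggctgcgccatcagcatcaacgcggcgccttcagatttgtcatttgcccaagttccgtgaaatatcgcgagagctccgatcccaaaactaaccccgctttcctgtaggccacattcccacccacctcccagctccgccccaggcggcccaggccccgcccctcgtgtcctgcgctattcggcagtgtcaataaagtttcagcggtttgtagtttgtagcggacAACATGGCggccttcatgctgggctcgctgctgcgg
MRPS22: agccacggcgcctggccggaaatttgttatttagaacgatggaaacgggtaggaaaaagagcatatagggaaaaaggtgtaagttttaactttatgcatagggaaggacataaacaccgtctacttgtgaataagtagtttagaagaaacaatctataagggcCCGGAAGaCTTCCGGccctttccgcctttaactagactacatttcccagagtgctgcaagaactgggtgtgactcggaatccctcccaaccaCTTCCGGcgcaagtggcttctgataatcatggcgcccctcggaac
MRPS12: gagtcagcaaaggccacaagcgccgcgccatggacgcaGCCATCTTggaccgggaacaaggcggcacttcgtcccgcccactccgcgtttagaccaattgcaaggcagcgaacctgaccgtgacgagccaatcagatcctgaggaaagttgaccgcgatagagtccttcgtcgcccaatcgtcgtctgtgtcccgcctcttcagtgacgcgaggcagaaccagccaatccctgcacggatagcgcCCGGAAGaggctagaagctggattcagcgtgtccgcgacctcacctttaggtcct

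MRPL53 and MRPL27 hold 2 ETS cores each, MRPS22 holds 3 in this window, MRPS14 holds 1 YY1 core just after its start, and MRPS12 holds 1 ETS core and 1 YY1 core. Over all windows of the 77 genes, 42.6% of the 68 genes had an ETS core, against 22.9% of the 9426 tested genes with a window. A YY1 core was found in 38.2% of the 68 genes and in 12.8% of tested genes. The NRF1 core was in 13.2% against 13.7% and the E-box in 13.2% against 12.8% of tested genes. The extended form was in 3 of the 68 genes (4.41%), against 2.37% of tested genes. Such matches describe letters and do not show that a factor binds. The relation of these matches to the changes was not tested.

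Dox alone changed few of the 77 genes in the fit with group means alone. With Dox against vehicle 2 rose and 2 fell, while 10.6% of all tested genes rose and 7.31% fell. Both shares were thus below the background in this fit. A fit with the replicate number as a block gave 5 that rose and 12 that fell, beside 17.6% and 11.9% of all tested genes. There the share that fell was above the background. The median change was -0.015 for the 77 genes and 0.041 for all tested genes. The sign for the 77 genes turned in 2 alternatives, with medians of 0.0089 when libraries were scaled to equal FPKM sums and 0.0054 without Dox replicate 3.

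MRPL34, the counterpart of a small bacterial large-subunit protein, had the clearest rise. It had 38.0, 40.8 and 42.9 FPKM with Dox, against 33.9, 29.03 and 29.4 FPKM with vehicle, so all Dox libraries were above all vehicle libraries (0.39 ± 0.081, adjusted p = 0.0068), and the call held under all 23 alternatives. MRPL34 had 32.0, 32.0 and 29.1 FPKM with Dox plus inhibitor, against 31.7, 27.5 and 26.9 FPKM with inhibitor, and these groups overlapped (0.11 ± 0.081, adjusted p = 0.33). It fell with Dox plus inhibitor against Dox (-0.37 ± 0.081, adjusted p = 0.0049). The difference between its Dox changes with and without the inhibitor was -0.28 ± 0.12 and did not pass the test (adjusted p = 0.31).

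MRPS25, a small-subunit protein without a bacterial counterpart, rose slightly with 11.4, 11.7 and 11.8 FPKM with Dox, against 9.82, 10.2 and 10.4 FPKM with vehicle (0.18 ± 0.054, adjusted p = 0.042). That call was lost in 13 of the 23 alternatives, the 3 rescalings among them. MRPL4, whose bacterial counterpart lines the exit tunnel, had 41.9, 39.98 and 41.3 FPKM with Dox, against 54.6, 45.9 and 46.8 FPKM with vehicle (-0.25 ± 0.072, adjusted p = 0.034). MRPS27, a pentatricopeptide repeat protein of the small subunit, had 28.8, 28.3 and 26.8 FPKM with Dox, against 32.1, 32.8 and 31.9 FPKM with vehicle (-0.20 ± 0.059, adjusted p = 0.038). Both of these genes had non-overlapping groups, but the falls of MRPL4 and MRPS27 were lost in 5 and 7 of the 23 alternatives, the removal of any Dox library among them. Libraries did not overlap in 9 genes that were higher and 12 that were lower with Dox, against 22.8% and 16.2% of all tested genes. After median-ratio scaling 1 gene rose and 7 fell, beside 8.19% and 10.7% of all tested genes, and without replicate 1 of every group 2 rose and 9 fell, beside 11.6% and 7.19%.

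In the presence of the inhibitor, Dox likewise moved few of the genes in the fit with group means alone. With Dox plus inhibitor against inhibitor 2 rose and 1 fell in that fit, beside 12.2% and 6.06% of all tested genes. With the replicate number as a block 11 rose and 5 fell, beside 26.5% and 9.46% of all tested genes. MRPS6, of bacterial ancestry and in the small subunit, fell, with 36.3, 31.1 and 32.9 FPKM with Dox plus inhibitor, against 47.4, 38.4 and 39.4 FPKM with inhibitor (-0.31 ± 0.083, adjusted p = 0.027). MRPS36 had 14.7, 13.7 and 14.0 FPKM with Dox plus inhibitor, against 11.6, 10.3 and 12.3 FPKM with inhibitor (0.29 ± 0.073, adjusted p = 0.021), and MRPS18C had 33.2, 31.0 and 32.0 FPKM with Dox plus inhibitor, against 27.95, 26.7 and 28.4 FPKM with inhibitor (0.20 ± 0.059, adjusted p = 0.037). The groups did not overlap in any of the 3 genes. The fall of MRPS6 was lost in 4 of the 23 alternatives. The rise of MRPS36 was lost in 8 of the 23 alternatives and that of MRPS18C in 13. Among these were median-ratio scaling, quantile normalization and the removal of the length and GC trend with or without the replicate block, and over all alternatives the values ran down to 0.04 for MRPS36 (adjusted p up to 0.87) and 0.03 for MRPS18C (adjusted p up to 0.83). Median-ratio scaling left 0 genes risen and 1 fallen, beside 5.2% and 9.55% of all tested genes. The median change of the 77 genes was 0.035 and turned in 4 alternatives, to -0.052 with median-ratio scaling, -0.023 without Dox plus inhibitor replicate 1, -0.0087 without inhibitor replicate 2 and -0.0054 without inhibitor replicate 3.

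In this comparison same-numbered libraries deviated together in all 3 pairs, and a fit with the replicate number as a block gave 11 genes that rose and 5 that fell, beside 26.5% and 9.46% of all tested genes. Under the block MRPL42 (0.35 ± 0.092, adjusted p = 0.018), MRPS31 (0.28 ± 0.091, adjusted p = 0.037), MRPL24 (0.26 ± 0.051, adjusted p = 0.0048) and MRPL19 (0.23 ± 0.066, adjusted p = 0.025) also rose, and MRPL12 (-0.23 ± 0.069, adjusted p = 0.029) also fell. Without the block 17 genes had every Dox plus inhibitor library above every inhibitor library and 4 below, against 25.2% and 11.7% of all tested genes, and without replicate 1 of every group 5 rose and 2 fell, beside 16.9% and 6.58%. The number of genes that rose was 7 without vehicle replicate 1, beside 15.9% of all tested genes, and 6 without vehicle replicate 3, beside 13.4%. It was 0 without inhibitor replicate 2, beside 6.7%, and 0 without Dox plus inhibitor replicate 3, beside 5.35%.

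Whether the Dox change differed with the inhibitor was tested as an interaction, in which a positive value means a higher Dox change when the inhibitor was present. By limma 0 of the 77 genes passed, beside 0.909% of all tested genes with a positive and 1.91% with a negative difference. An unadjusted p under 0.05 was found in 5 of the 77 genes, MRPL3, MRPL34, MRPL48, MRPS18C and MRPS21, against 14.1% of all tested genes, and the lowest adjusted p was 0.27. The median interaction was 0.064 for the 77 genes and 0.047 for all tested genes.

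**Figure D4:**
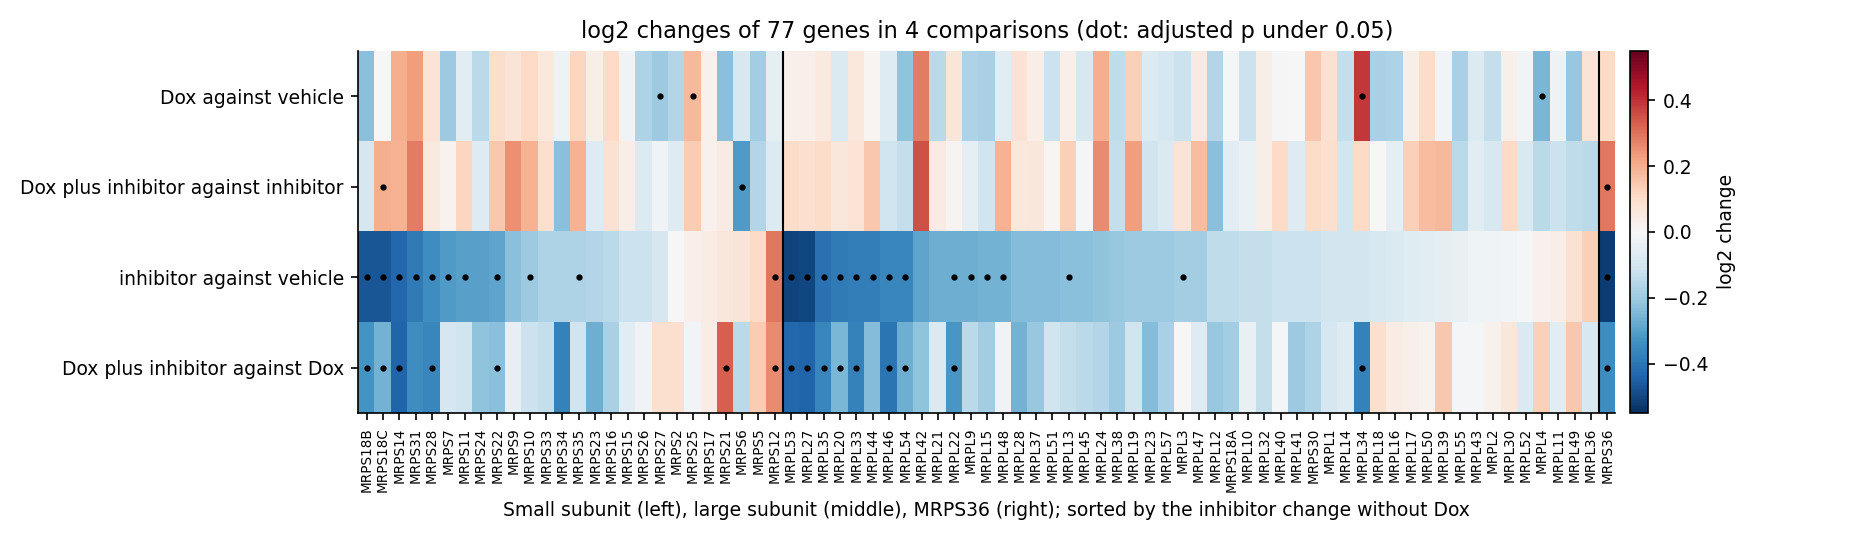
Log2 changes of the 77 genes (columns) in 4 comparisons (rows), as colours from -0.55 (blue) to 0.55 (red), with a dot where the adjusted p was under 0.05. Small-subunit genes stand left, large-subunit genes in the middle and MRPS36 at the right, each part sorted by the change with inhibitor against vehicle, and the dots gather in the rows of the inhibitor comparisons.

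By place in the ribosome, some neighbours passed the test and others did not. The stalk of the large subunit recruits translation factors and contains MRPL12, held by MRPL10 next to MRPL11. MRPL12 averaged 74.8 ± 5.83 FPKM with Dox plus inhibitor and 86.6 ± 2.39 FPKM with Dox. It averaged 87.9 ± 9.94 FPKM with inhibitor and 97.3 ± 11.5 FPKM with vehicle. None of the 3 stalk genes passed the test in any comparison without the replicate block. With the block MRPL12 fell with Dox plus inhibitor against inhibitor (-0.23 ± 0.069, adjusted p = 0.029). At the exit of the peptide tunnel, MRPL22 fell in both inhibitor comparisons (-0.27 ± 0.09 and -0.32 ± 0.09), calls lost in 11 and 6 of the 23 alternatives. MRPL23 (-0.20 ± 0.13 and -0.24 ± 0.13), MRPL24 (-0.22 ± 0.087 and -0.16 ± 0.087) and MRPL45 (-0.23 ± 0.093 and -0.15 ± 0.093), which anchors the ribosome to the inner membrane, did not pass in either. Of the central protuberance, MRPL46 fell in both and MRPL38 and MRPL40 passed in neither. MRPL48 fell with inhibitor against vehicle (-0.26 ± 0.072, adjusted p = 0.014), a call lost in 6 of the 23 alternatives. It had a change of -0.02 ± 0.072 with Dox plus inhibitor against Dox (adjusted p = 0.88). Of the small subunit, MRPS35 fell with inhibitor against vehicle with an adjusted p of 0.049, a call lost in 19 of 23 alternatives, and MRPS34 passed in no comparison, with SDs of 7.1 FPKM with Dox plus inhibitor and 13.3 FPKM with inhibitor.

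The 3 paralogs of bacterial S18 show how related genes differed. MRPS18C takes the place of the bacterial protein in the small subunit, MRPS18B lies elsewhere in the small subunit and MRPS18A lies in the large subunit. MRPS18B had 34.3, 29.5 and 28.5 FPKM with inhibitor, against 44.8, 41.6 and 41.7 FPKM with vehicle (-0.47 ± 0.092, adjusted p = 0.0022). MRPS18C had 27.95, 26.7 and 28.4 FPKM with inhibitor, against 36.2, 39.1 and 40.8 FPKM with vehicle (-0.47 ± 0.059, adjusted p = 0.00012). MRPS18A had 34.9, 29.8 and 28.7 FPKM with inhibitor, against 38.4, 34.0 and 30.9 FPKM with vehicle, with overlapping groups (-0.14 ± 0.092, adjusted p = 0.25). Where Dox was present, MRPS18B (-0.33 ± 0.092, adjusted p = 0.018) and MRPS18C (-0.26 ± 0.059, adjusted p = 0.0061) fell with the inhibitor. There MRPS18A had -0.19 ± 0.092 (adjusted p = 0.15). The call on MRPS18B with Dox was lost in 5 of the 23 alternatives, median-ratio scaling among them. That on MRPS18C was lost in 1, the removal of the length and GC trend without the replicate block. The differences between the paralogs' changes were not tested.

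Proteins of the mitochondrial ribosome with other symbols, listed apart, were DAP3, PTCD3, CHCHD1, AURKAIP1, GADD45GIP1 and ICT1. Only ICT1, a peptidyl-tRNA hydrolase built into the large subunit, passed the test in any of the 4 comparisons of groups without the replicate block. With the block PTCD3, a pentatricopeptide repeat protein of the small subunit, rose with Dox plus inhibitor against inhibitor (0.19 ± 0.057, adjusted p = 0.03). ICT1 fell to 27.4 ± 2.47 FPKM with inhibitor, against 37.0 ± 2.05 FPKM with vehicle (-0.42 ± 0.1, adjusted p = 0.0065). With Dox plus inhibitor it had 33.1, 26.2 and 24.8 FPKM, against 39.3, 36.2 and 36.8 FPKM with Dox (-0.41 ± 0.1, adjusted p = 0.0084).

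Of the 25 factors that assemble the mitochondrial ribosome, 4 fell and 1 rose with inhibitor against vehicle, beside 26.3% and 11.7% of tested genes. With Dox plus inhibitor against Dox 2 fell and 2 rose, beside 20.8% and 11.3%. RPUSD4, a pseudouridine synthase that acts on the large ribosomal RNA, rose in both (0.38 ± 0.056 and 0.27 ± 0.056). MTG1, a GTPase of large-subunit assembly, fell with inhibitor against vehicle (-0.31 ± 0.068) and with Dox against vehicle (-0.23 ± 0.068). MRM1, a methyltransferase of ribosomal RNA, was the other assembly factor that fell with Dox against vehicle (-0.49 ± 0.12, adjusted p = 0.015). With Dox plus inhibitor against inhibitor 1 of the 25 fell, beside 6.06% of all tested genes, and that gene was RPUSD4 (-0.22 ± 0.056). With the replicate block 5 of the 25 fell and 1 rose in this comparison, beside 9.46% and 26.5% of all tested genes.

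Of 17 translation factors and their partners, 5 fell in each inhibitor comparison, beside 26.3% of all tested genes against vehicle and 20.8% against Dox. GFM1, the elongation factor that moves the ribosome along, had 26.1, 25.7 and 26.0 FPKM with Dox plus inhibitor, against 33.9, 32.8 and 36.3 FPKM with Dox, and 20.2, 20.5 and 21.3 FPKM with inhibitor, against 24.2, 28.3 and 30.1 FPKM with vehicle. GFM1 thus fell by the inhibitor in both settings (-0.39 ± 0.073 each), and it rose with Dox in both (0.31 ± 0.073 against vehicle and 0.32 ± 0.073 against inhibitor). The recycling factors GFM2 (-0.51 ± 0.083 and -0.30 ± 0.083) and MRRF (-0.32 ± 0.058 and -0.33 ± 0.058) fell with inhibitor against vehicle and with Dox plus inhibitor against Dox, as did TACO1, a translational activator of a cytochrome oxidase subunit (-0.39 ± 0.11 and -0.40 ± 0.11). With Dox plus inhibitor against inhibitor 3 of the 17 rose, MTIF3, GFM1 and GFM2, and 0 fell, beside 12.2% and 6.06% of all tested genes. With the replicate block 7 rose and 1 fell, beside 26.5% and 9.46%. The largest of these changes were in MTIF3 (0.50 ± 0.12) and MTRF1 (0.42 ± 0.09), and TUFM fell (-0.27 ± 0.062).

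Of 22 genes for charging mitochondrial transfer RNAs, 3 fell and 1 rose with inhibitor against vehicle, beside 26.3% and 11.7% of all tested genes. With Dox plus inhibitor against Dox 2 fell and 1 rose, beside 20.8% and 11.3%. CARS2, the cysteine enzyme, had 8.80, 7.49 and 7.93 FPKM with Dox plus inhibitor, against 13.1, 14.5 and 12.97 FPKM with Dox (-0.68 ± 0.084, adjusted p = 0.00011). With Dox against vehicle it rose by 0.69 ± 0.084, to 13.5 ± 0.841 FPKM with Dox, against 8.03 ± 0.225 FPKM with vehicle (adjusted p = 0.00021). QRSL1, a subunit of the enzyme that makes glutaminyl transfer RNA, fell with the inhibitor in both settings (-0.61 ± 0.066 and -0.53 ± 0.066). With Dox plus inhibitor against inhibitor 3 of the 22 rose, CARS2, HARS2 and IARS2, and 1 fell, VARS2, beside 12.2% and 6.06% of all tested genes. With the replicate block 4 rose and 3 fell, beside 26.5% and 9.46%. Among 5 genes for the transcription of mitochondrial DNA, POLRMT, the RNA polymerase, fell with Dox plus inhibitor against inhibitor (-0.28 ± 0.08, adjusted p = 0.035).

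Of 9 transcription factors and coactivators known to act on mitochondrial genes, 8 were tested. MYC rose in both inhibitor comparisons, in which most of the 77 genes with a call fell. It had 127, 119 and 116 FPKM with Dox plus inhibitor, 70.0, 72.7 and 70.2 FPKM with Dox, 179.9, 179.98 and 173 FPKM with inhibitor, and 131, 116 and 112 FPKM with vehicle. It rose with inhibitor against vehicle (0.57 ± 0.062, adjusted p = 4e-05) and with Dox plus inhibitor against Dox (0.75 ± 0.062, adjusted p = 5.4e-06), and fell with Dox against vehicle (-0.74 ± 0.062, adjusted p = 1.3e-05). YY1 fell with inhibitor against vehicle (-0.32 ± 0.055, adjusted p = 0.00093) and with Dox plus inhibitor against Dox (-0.20 ± 0.055, adjusted p = 0.018). NRF1 (-0.41 ± 0.088, adjusted p = 0.0039) and GABPB1 (-0.40 ± 0.092, adjusted p = 0.0056) fell with inhibitor against vehicle. GABPA, the ETS partner of GABPB1, had 5.49, 9.19 and 10.1 FPKM with Dox plus inhibitor, 10.9, 10.2 and 12.4 FPKM with Dox, 2.76, 5.28 and 6.88 FPKM with inhibitor, and 5.06, 7.96 and 10.6 FPKM with vehicle. It did not pass the test in any comparison without the replicate block, and with the block it rose with Dox plus inhibitor against inhibitor (0.66 ± 0.15, adjusted p = 0.01), higher in all 3 pairs. In the same blocked comparison GABPB1 (0.26 ± 0.087, adjusted p = 0.041) and PPARGC1A (0.29 ± 0.092, adjusted p = 0.035) also rose and PPRC1 fell (-0.15 ± 0.046, adjusted p = 0.033). MYC fell there as well (-0.56 ± 0.049, adjusted p = 6.8e-05), and it fell in that comparison without the block too. The coactivator PPARGC1A rose with Dox against vehicle (0.60 ± 0.13, adjusted p = 0.0097) and fell with Dox plus inhibitor against Dox (-0.63 ± 0.13, adjusted p = 0.0044), and ESRRA, its nuclear receptor partner, also fell in the second of these (-0.58 ± 0.1, adjusted p = 0.0015). PPRC1, a related coactivator, fell with Dox against vehicle (-0.25 ± 0.054, adjusted p = 0.0082). What these regulators have to do with the levels of the 77 genes was not tested.

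The respiratory chain genes, whose products include the partners of what the mitochondrial ribosome makes, had somewhat more falls than the 77 genes in both inhibitor comparisons. With inhibitor against vehicle 30 of 79 tested fell and 1 rose, beside 26.3% and 11.7% of all tested genes. The median change was -0.18. With Dox plus inhibitor against Dox 23 fell, beside 20.8%, with a median of -0.139. The cytosolic ribosomal protein genes showed fewer calls with the inhibitor, with 7 of 81 fallen against vehicle and 4 of 81 against Dox. These stood beside the same 26.3% and 20.8% of all tested genes. The median changes of the cytosolic genes were -0.102 and 0.005. With Dox against vehicle 10 of the 81 fell and 1 rose, beside 7.31% and 10.6% of all tested genes, and the median was -0.183. Differences between these lists and the 77 genes were not tested.

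**Figure D5:**
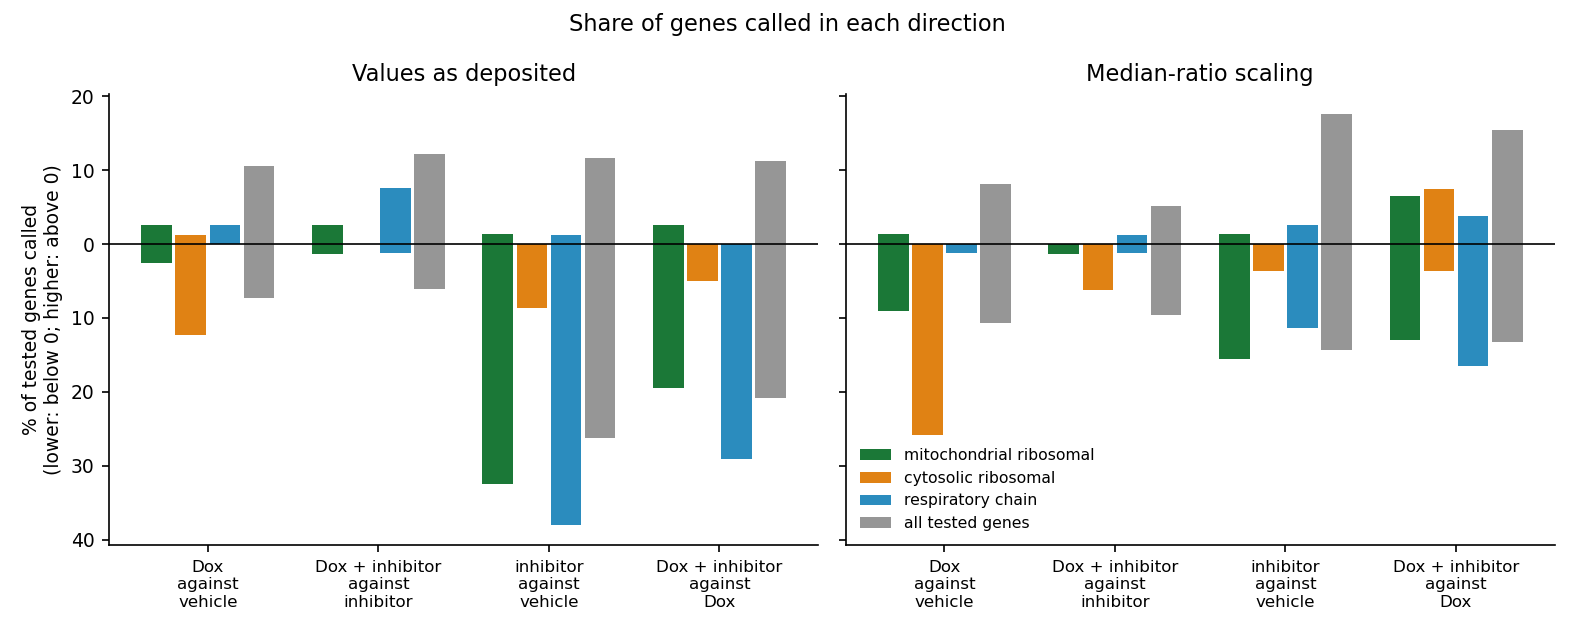
Share of tested genes (percent) that rose (bars above 0) or fell (bars below 0) in 4 comparisons, for mitochondrial ribosomal (n = 77), cytosolic ribosomal (n = 81), respiratory chain (n = 79) and all 12649 tested genes, with values as deposited (left) and after median-ratio scaling (right). As deposited, 25 of 77 and 15 of 77 genes fell in the inhibitor comparisons, near the grey bars of all genes, and the share is smaller after rescaling with inhibitor against vehicle.

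The longest annotated transcripts of the 77 genes were short, with a median of 1727 bases, against 3577 bases for tested genes. Their median GC content was 47.6%, against 48.2%. The 25 genes that fell with inhibitor against vehicle had a median GC content of 43.1%, and the 51 that did not pass had 48.9%. The rank correlation between change and GC content was 0.28 over the 77 genes and 0.22 over all tested genes with inhibitor against vehicle, and 0.16 and 0.08 with Dox plus inhibitor against Dox. With Dox against vehicle it was -0.51 and -0.39, and with Dox plus inhibitor against inhibitor -0.61 and -0.56. These are descriptions across genes of the same libraries, and the part of base composition in the changes was not tested.

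The genes are spread over 21 chromosomes, and some start close to a gene on the opposite strand. In the GENCODE 29 annotation of GRCh38, 19 of the 77 genes had a head-to-head neighbour with its start within 1000 bases, against 1359 of 11335 tested protein-coding genes. MRPL46 (chr15:88459476-88467419, minus strand) and MRPS11 (chr15:88467453-88480773, plus strand) are such a pair, with starts 34 bases apart. With inhibitor against vehicle MRPL46 (-0.36 ± 0.078) and MRPS11 (-0.30 ± 0.089, adjusted p = 0.022) both fell. These calls were lost in 1 and 7 of the 23 alternatives. With Dox plus inhibitor against Dox MRPL46 fell (-0.40 ± 0.078) and MRPS11 had 12.8, 13.7 and 14.0 FPKM with Dox plus inhibitor, against 15.8, 15.0 and 13.3 FPKM with Dox, which overlap (-0.11 ± 0.089, adjusted p = 0.38). MRPL27 (chr17:50367857-50373214, minus strand) starts 6 bases from EME1, a subunit of a DNA repair nuclease, which also fell in both inhibitor comparisons (-0.55, adjusted p = 0.00035, and -0.31, adjusted p = 0.014). Other pairs differed in their calls. NDUFB5 (-0.22 and -0.23) and SKA3 (-0.56 and -0.32) fell in both inhibitor comparisons while their partners MRPL47 and MRPL57 did not pass, and MRPS18C and MRPL54 fell in both while their partners HELQ and APBA3 did not pass. Of 14 pairs with both genes tested, with inhibitor against vehicle both fell in 2, the mitochondrial ribosomal gene alone in 3 and the neighbour alone in 4. Among all tested genes 26.3% fell in that comparison. With Dox plus inhibitor against Dox both fell in 1, the mitochondrial ribosomal gene alone in 3, counting MRPL46 without MRPS11, and the neighbour alone in 2, beside 20.8% of all tested genes. Whether the genes of a pair fell together more often than unpaired genes was not tested.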

How the data were processed

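Poly(A) RNA of HK-2 cells was sequenced in 12 libraries, 3 in each of 4 groups. The authors deposited FPKM values per gene symbol, rounded to hundredths. Salmon 1.9.0, Trim Galore 0.6.7 and the builds GRCh38.p13 and hg38 appear, without role or order, among the tools in the submitters' processing notes. How transcripts were summed to genes, and on which annotation, is not given there. Depth is unknown, so values carry no counting interval.

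The FPKM as deposited were turned into log2(FPKM + 1). Genes with an FPKM of at least 1 in at least 3 of 12 libraries were tested (12649). One model with 4 group means (8 residual degrees of freedom) was fitted with limma 3.58.1 in R 4.3.3, with an intensity trend and Benjamini-Hochberg adjustment over all tested genes. The script was first tested on simulated data. P-values measure the spread between these libraries. The genes and lists were chosen with earlier results of these data known. Genes named with values were, in each comparison, up to 8 called per direction with the largest change, the 5 highest and 5 lowest in level, genes picked by role, up to 3 called per direction in each other list, and the regulators. Also named after their values were seen were MRPS11, MRPL19, MRPL44, MRPL54, MRPS31, MRPL42, EME1, the other neighbours and the genes of small counts.

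Same-numbered libraries were checked for shared deviations from group means. With Dox plus inhibitor against inhibitor all 3 pairs had correlations over 0.1 (0.133 to 0.549), which was taken as pairing. In the other comparisons of groups at most 2 of 3 pairs did. With inhibitor against vehicle the correlations were 0.686, 0.0974 and 0.505, so the lowest missed this limit narrowly. Results with the replicate block are therefore given for that comparison too.

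Alternatives were 3 rescalings, another pseudocount, no filter, a mean FPKM of at least 5, a fit to the compared groups alone, the replicate block, removal of a length and GC trend with and without the block, each library left out and, chosen after seeing the data, replicate 1 of every group left out. Promoter windows came from RefSeq tables, gene coordinates, length and GC content from GENCODE 29 (GRCh38). Length and GC content are those of the longest annotated transcript of each gene, which need not be the one expressed here.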

Additional observations from a re-analysis of the deposited data

How the results depend on the processing

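Counts are of the 77 genes, risen then fallen, and the cause of each move was not tested. In this part, the comparisons are Dox against vehicle (2 and 2 as reported), Dox plus inhibitor against inhibitor (2 and 1), inhibitor against vehicle (1 and 25) and Dox plus inhibitor against Dox (2 and 15). Median-ratio scaling gave 1 and 7, 0 and 1, 1 and 12, and 5 and 10. Quantile normalization gave 1 and 3 (7.89% and 10.3% of all tested genes), 1 and 2 (5.95% and 8.56%), 1 and 18 (16.0% and 16.2%), and 4 and 15 (15.1% and 14.9%). Equal FPKM sums gave 4 fallen with Dox against vehicle (7.98%) and 5 risen with Dox plus inhibitor against Dox (13.9%). A fit to the compared groups alone gave 1 and 1 (8.98% and 5.81%), 0 and 0 (4.74% and 3.94%), 1 and 16 (8.94% and 17.1%), and 26 fallen in the last comparison (25.3%). With the length and GC trend removed the counts were 5 and 6 (17.9% and 10.2%), 9 risen (22.0%), 37 fallen (36.8%) and 29 fallen (30.6%). Each library was also left out in turn, with the range of shares of all tested genes in brackets. This gave 1 to 5 and 0 to 3 with Dox against vehicle (6.86% to 12.4% and 4.42% to 9.07%). It gave 0 to 7 and 0 to 2 with Dox plus inhibitor against inhibitor (5.35% to 15.9% and 3.51% to 7.19%). With inhibitor against vehicle the counts were 1 and 16 to 36 (9.65% to 12.7% and 19.5% to 26.9%). With Dox plus inhibitor against Dox they were 1 to 2 and 10 to 24 (8.82% to 12.3% and 15.3% to 23.1%). For the interaction both were 0 (0.451% to 1.02% and 0.996% to 2.32%). Leaving out replicate 1 of every group, which was chosen after seeing the data, gave 2 and 9, 5 and 2, 1 and 44, and 2 and 34, and MRPS21 then had a positive interaction (0.35, adjusted p = 0.03).

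With the replicate block the counts were 5 and 12 with Dox against vehicle (17.6% and 11.9% of all tested genes), 11 and 5 with Dox plus inhibitor against inhibitor (26.5% and 9.46%), 38 fallen with inhibitor against vehicle (34.8%), and 4 and 31 with Dox plus inhibitor against Dox (14.1% and 27.3%). The 12 fallen with Dox against vehicle are 15.6% of the 77, above the share of all tested genes, where the share as reported was below it. The 38 and 31 fallen in the inhibitor comparisons are 49.4% and 40.3% of the 77. These too are above the shares of all tested genes, where the shares as reported were near them. With the block and the length and GC trend removed they were 4 and 11 (21.1% and 12.1%), 12 and 4 (27.7% and 8.24%), 40 fallen (40.2%), and 7 and 33 (16.0% and 33.9%), and 1 gene, MRPS7, had a positive interaction (0.22, adjusted p = 0.036). Over all comparisons same-numbered libraries had correlations of -0.0904 to 0.686, over 0.1 in 9 of 18 pairs, and 8 of 12 libraries correlated best with their own number, a hint from the data and not from the design.

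Of the recomputed changes of single genes with a call, 979 kept their direction and the call, 171 kept their direction and lost the call, and 0 reversed. Another 155 recomputed counts were within 1.5 times the count reported, and 73 were not. The median change of the 77 genes turned its sign in 2 alternatives with Dox against vehicle and in 4 with Dox plus inhibitor against inhibitor. Depth is unknown, so what it limits cannot be stated.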
